A study of Mus musculus with 8 samples.

Results

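The 10 genes described here were Col4a1, Col4a2, Lama1, Lamb1, Lamc1, Nid1, Hspg2, Sparc, Dab2 and Fn1, of which 9 encode basement membrane or other matrix proteins and Dab2 encodes an endocytic adaptor of extraembryonic endoderm. They were chosen by symbol through their Ensembl IDs, and all 10 were found among the 37310 genes listed for the J1 libraries. Poly-A RNA-seq counts were available for 8 libraries from cultures of mouse embryonic stem cells, from a study of the RNA helicase eIF4A3, a core protein of the exon junction complex. The J1 line (strain 129S4/SvJae) gave 3 groups of 2 libraries: CtrlKD-CtrlOE with control knockdown and control expression (called control here), eif4a3KD-CtrlOE with eIF4A3 knockdown and control expression (knockdown-labelled), and eif4a3KD-ccnb1OE with eIF4A3 knockdown and expression of Ccnb1, which encodes cyclin B1 (Ccnb1-labelled). The CCE line (strain 129/Sv) contributed 2 further libraries that carry the eIF4A3 knockdown label, with no CCE control group analysed here. All cells, per the labels, grew without feeders on gelatin in serum and LIF, were transfected and drug-selected, infected with lentivirus, selected with puromycin at 1 µg/mL for 2.5 days and collected at day 4.5 after infection. The labels do not name the knockdown sequence or the promoter of the expression construct.

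A basement membrane is a sheet of extracellular matrix built from a laminin network and a type IV collagen network, which nidogen and the heparan sulfate proteoglycan perlecan connect. In the early mouse embryo, primitive endoderm cells secrete this matrix, and their parietal descendants make the thick Reichert's membrane from the same collagen and laminin chains. Embryonic stem cells that are driven to primitive endoderm by GATA factors switch on type IV collagen, laminin, Sparc and Dab2, and these genes are used as markers of that lineage.

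Summed over genes, the counts were 5740965 and 8340023 in control, 4398141 and 3596615 in the knockdown-labelled libraries, 5871830 and 6620504 in the Ccnb1-labelled libraries, and 23966825 and 25574740 in CCE. Over genes of moderate count, the spread within a group was 3.41 times Poisson noise in control, 22.0 times in knockdown-labelled cells and 1.88 times in Ccnb1-labelled cells, so levels in knockdown-labelled cells are the least precise of the 3. Reads left unaligned made up 40.8% and 45.2% in knockdown-labelled cells against 15.7% to 15.9% in the other J1 libraries, and in comparisons with knockdown-labelled cells this difference cannot be told apart from the treatment. Eif4a3 stood at 73.5 and 83.7 counts scaled to the library total (CPM) in control, 75.7 and 37.5 in knockdown-labelled cells, 47.3 and 53.5 in Ccnb1-labelled cells and 48.8 and 53.9 in CCE, so knockdown-labelled replicate 1 did not lie below control. Ccnb1 stood at 135 and 129 CPM in control, 101 and 126 in knockdown-labelled cells, 136 and 131 in Ccnb1-labelled cells and 247 and 261 in CCE. Ccnb1-labelled cells thus overlapped control for the gene their label names and lay above both knockdown-labelled libraries, without a called difference in either comparison (edgeR adjusted p = 0.814 and 0.128). The 12 embryonic stem cell markers listed were present in every library, at a summed 9767 and 9751 CPM in control, 4999 and 4625 in knockdown-labelled cells, 10091 and 10173 in Ccnb1-labelled cells and 4704 and 5166 in CCE. All 12 fell in knockdown-labelled cells against control, Utf1 by 2.12, Klf4 by 1.54 and Pou5f1 by 1.14 on the log2 scale (edgeR adjusted p = 0.000202, 0.000352 and 0.000229), and all 12 rose in Ccnb1-labelled cells against knockdown-labelled cells. In Ccnb1-labelled cells against control 6 rose, Nanog by 0.97 (edgeR adjusted p = 0.00520), and 2 fell, Pou5f1 by 0.88 and Utf1 by 1.22 on the log2 scale (edgeR adjusted p = 0.000473 and 0.000708). Of all genes tested, 17.9% fell in the first of these comparisons, 22.8% rose in the second, and 9.35% rose and 10.5% fell in the last.

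Levels of the 10 genes are CPM over all gene counts. Fold changes were tested with edgeR's quasi-likelihood test in 1 fit over the 6 J1 libraries, called at a Benjamini-Hochberg adjusted p under 0.05 over 14462 genes, and carry an approximate standard error (SE). All 10 genes passed the filter on low counts. Dab2, with 9 and 24 counts in control, passed it through the groups where it is high. Because RNA was taken from whole cultures, more cells of a kind and more RNA per cell cannot be told apart at any level given here. The labels do not say that the libraries of a group came from separate cultures, so the p-values measure only the spread between these libraries.

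**Figure D1:**
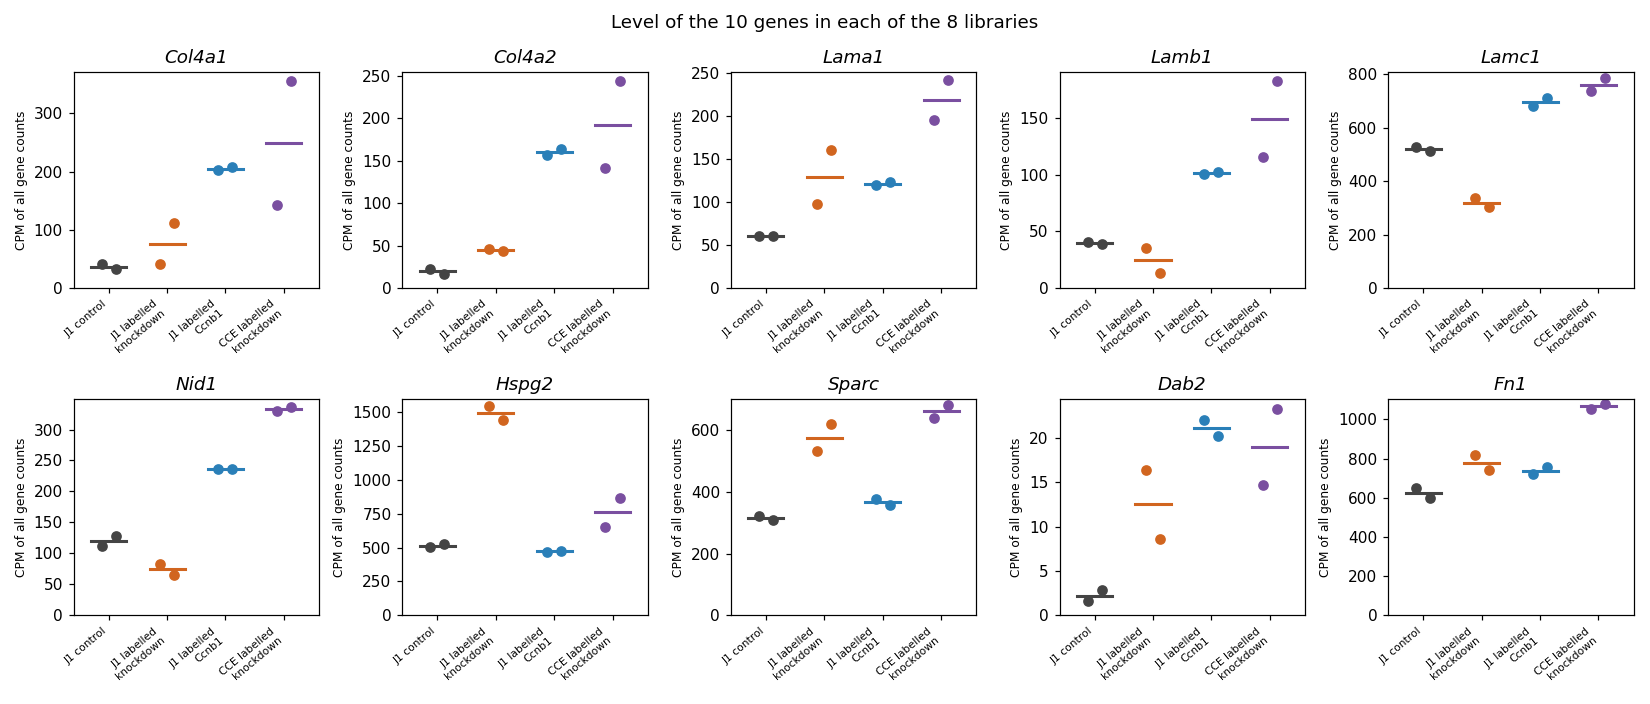
Level of each gene in CPM of all gene counts (vertical axes, linear from 0) in the 2 libraries (points) of each group, with the group mean as a bar. Type IV collagen genes lie at 157 to 207 CPM in Ccnb1-labelled cells against 17.0 to 41.5 CPM in control, while Hspg2 is highest in knockdown-labelled cells, at 1439 and 1542 CPM.

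Compared per kilobase of the longest annotated transcript, Sparc was the highest of the 10 in every group, at 137 ± 4.12 CPM per kilobase in control (SD, n = 2). Fn1 and Lamc1 followed in control, at 75.0 ± 4.56 and 68.5 ± 1.40 CPM per kilobase, and Dab2 was lowest in every group, at 0.477 ± 0.199 in control. Col4a1 and Col4a2 stood in eighth and ninth place in control, at 5.59 ± 0.958 and 3.08 ± 0.616 CPM per kilobase. In Ccnb1-labelled cells they stood in the sixth and seventh place, at 30.9 ± 0.562 and 24.9 ± 0.767. Together the 10 genes took 2284 and 2224 CPM in control, 3544 and 3505 in knockdown-labelled cells, 3085 and 3158 in Ccnb1-labelled cells and 4030 and 4797 in CCE. Hspg2 made up 43.5% and 41.1% of that sum in knockdown-labelled cells against 15.1% in both Ccnb1-labelled libraries, so the 10 genes made up these sums in different proportions.

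Col4a1 (ENSMUSG00000031502) and Col4a2 (ENSMUSG00000031503) encode the alpha1 and alpha2 chains of the ubiquitous type IV collagen trimer. They lie head to head on mouse chromosome 8 and share a bidirectional promoter, and their promoter windows are shown because the data below bear on both genes of this shared region. The windows hold 250 bases before and 50 after each RefSeq start (GRCm38.p6, another build than the mm9 the submitters' notes name), share 78 bases and are written in the direction of each gene's transcription. Capitals mark the CCAAT box (the letters CCAAT), the GC box (the letters GGGCGG), the TATA box (the letters TATAAA) and a GATA motif (the letters AGATAA), each searched on both strands.
Col4a1, chr8:11312777-11313076, minus strand: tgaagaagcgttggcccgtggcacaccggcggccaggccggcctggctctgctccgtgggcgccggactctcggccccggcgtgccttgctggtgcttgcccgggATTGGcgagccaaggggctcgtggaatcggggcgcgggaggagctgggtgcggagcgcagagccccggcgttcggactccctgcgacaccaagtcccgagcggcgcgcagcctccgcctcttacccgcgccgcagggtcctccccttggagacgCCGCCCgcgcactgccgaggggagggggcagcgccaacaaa
Col4a2, chr8:11312555-11312854, plus strand: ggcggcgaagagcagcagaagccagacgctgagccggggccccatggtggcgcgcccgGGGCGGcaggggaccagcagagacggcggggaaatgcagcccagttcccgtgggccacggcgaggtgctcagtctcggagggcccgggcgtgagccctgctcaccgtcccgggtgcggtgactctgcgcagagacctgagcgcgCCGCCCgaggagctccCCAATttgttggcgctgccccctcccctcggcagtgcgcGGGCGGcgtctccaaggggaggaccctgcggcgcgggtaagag
Each window held 1 CCAAT box, a motif found in 37.4% of all 32851 RefSeq promoter windows of this length. Col4a1 had 1 GC box and Col4a2 had 3, a motif found in 35.7% of all windows. The box of Col4a1 is also 1 of the 3 of Col4a2, read from the other strand within the 78 shared bases, and lies after both starts. Neither held a TATA box or the GATA motif, which are in 13.6% and 11.2% of windows. A match or its absence describes letters in this window only. The 2 annotated starts leave 22 bases of exon on opposite strands, and strand handling of the counts was not given in the sources used here, so reads there cannot be assigned by strand.

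Of the 9 matrix genes, those of type IV collagen had the highest fold changes in Ccnb1-labelled cells against control. Col4a1 stood at 41.5 and 32.5 CPM in control, 40.7 and 111 in knockdown-labelled cells, 202 and 207 in Ccnb1-labelled cells and 143 and 355 in CCE. The knockdown-labelled libraries overlapped control, and both Ccnb1-labelled libraries lay above every other J1 library. The log2 fold change was 2.40 (SE 0.46, edgeR adjusted p = 0.0195) between Ccnb1-labelled cells and control and 1.51 (SE 0.45, edgeR adjusted p = 0.0427) between Ccnb1-labelled cells and knockdown-labelled cells, and 0.88 (SE 0.45, edgeR adjusted p = 0.207) between knockdown-labelled cells and control. The last was 1.43 without replicate 1 of knockdown-labelled cells and -0.03 without replicate 2. A fit with 1 knockdown-labelled library takes its spread from the other groups, so only fold changes are given for it. The difference of 1.51 ranged from 1.00 to 2.47 over 15 alternative settings and lost its call in 6 of them, namely the replicate block, only the 2 groups in the fit and the fits without any 1 control or Ccnb1-labelled library. Col4a2 stood at 22.6 and 17.0 CPM in control, 45.5 and 43.1 in knockdown-labelled cells, 157 and 164 in Ccnb1-labelled cells and 141 and 243 in CCE. Its 3 J1 groups did not overlap and stood in that order. The log2 fold changes were 1.01 (SE 0.18, edgeR adjusted p = 0.0122) for knockdown-labelled cells and 2.95 (SE 0.18, edgeR adjusted p = 0.000838) for Ccnb1-labelled cells, both against control, and 1.94 (SE 0.17, edgeR adjusted p = 0.000981) between them. Across the 6 J1 libraries the log2 levels of both genes had a Pearson r of 0.92, a description over 6 libraries that form 3 groups. In CCE, replicate 2 held 2.48 times the Col4a1 and 1.72 times the Col4a2 of replicate 1, where the 5th and 95th percentiles of genes at 10 CPM or more were 0.765 and 1.31 times.

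The laminin genes did not move as 1 unit. Lama1 (ENSMUSG00000032796), Lamb1 (ENSMUSG00000002900) and Lamc1 (ENSMUSG00000026478) encode the alpha1, beta1 and gamma1 chains of laminin-111, the first laminin of the embryo. Lama1 was higher in both knockdown groups than in control, while Lamc1 was lower in knockdown-labelled cells and slightly higher in Ccnb1-labelled cells. Lama1 stood at 60.6 and 60.7 CPM in control, 97.3 and 160 in knockdown-labelled cells, 119 and 123 in Ccnb1-labelled cells and 196 and 242 in CCE. Control lay below every other library, and knockdown-labelled cells spanned Ccnb1-labelled cells. Its log2 fold changes against control were 0.93 (SE 0.24, edgeR adjusted p = 0.0387) in knockdown-labelled cells and 0.92 (SE 0.24, edgeR adjusted p = 0.0489) in Ccnb1-labelled cells. Between Ccnb1-labelled cells and knockdown-labelled cells it was -0.005 (SE 0.24, edgeR adjusted p = 0.991), and it was -0.28 without replicate 1 of knockdown-labelled cells and 0.46 without replicate 2. With an offset for GC content and transcript length, the calls against control were lost, at 0.47 (edgeR adjusted p = 0.208) and 0.60 (edgeR adjusted p = 0.181).

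Lamb1 stood at 40.8 and 38.5 CPM in control, 35.2 and 13.6 in knockdown-labelled cells, 100 and 102 in Ccnb1-labelled cells and 116 and 182 in CCE. No 2 groups overlapped, but the knockdown-labelled libraries held only 155 and 49 counts and differed by more than those of control. Its log2 fold change was 2.12 (SE 0.41, edgeR adjusted p = 0.0121) between Ccnb1-labelled cells and knockdown-labelled cells, and neither difference from control passed, at -0.84 (SE 0.40, edgeR adjusted p = 0.180) and 1.28 (SE 0.39, edgeR adjusted p = 0.0746). With only control and Ccnb1-labelled cells in the fit, the last was 1.23 (edgeR adjusted p = 4.88e-11). The difference between knockdown-labelled cells and control ranged from -1.71, without replicate 1 of knockdown-labelled cells, to -0.35 over the 15 alternatives. The difference of 2.12 ranged from 1.66 to 3.01 over the 15 alternatives and lost its call in the 4 fits without a control or Ccnb1-labelled library. Lamc1, the most abundant of the 3 chain genes per length, stood at 530 and 514 CPM in control, 336 and 302 in knockdown-labelled cells, 683 and 713 in Ccnb1-labelled cells and 738 and 785 in CCE. Again no 2 groups overlapped. It fell by 0.87 (SE 0.07, edgeR adjusted p = 0.00108) in knockdown-labelled cells against control and rose by 1.21 (SE 0.07, edgeR adjusted p = 0.000277) in Ccnb1-labelled cells against knockdown-labelled cells, on the log2 scale. The rise of 0.34 (SE 0.07, edgeR adjusted p = 0.0208) in Ccnb1-labelled cells against control turned to -0.10 (edgeR adjusted p = 0.421) with the offset for GC content and transcript length.

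The balance between chain genes shifted between groups. Per kilobase, the ratio of Lamc1 to Lamb1 was 9.86 and 10.1 in control, 7.23 and 16.8 in knockdown-labelled cells, 5.18 and 5.29 in Ccnb1-labelled cells and 4.85 and 3.27 in CCE. The ratio of Lamc1 to Lama1 was 10.9 and 10.6 in control, 4.31 and 2.36 in knockdown-labelled cells, 7.15 and 7.25 in Ccnb1-labelled cells and 4.72 and 4.06 in CCE. The transcript of the gamma1 chain, which also joins other laminins, thus exceeded those of both partners in every library. Lama5, the gene of the alpha chain of laminin-511, stood at 3.44 and 3.37 times Lama1 per kilobase in control, 2.97 and 2.05 times in knockdown-labelled cells, 1.15 and 1.16 times in Ccnb1-labelled cells and 0.599 and 0.588 times in CCE. Control and Ccnb1-labelled cells did not overlap in any of these ratios. By level, 45.3% and 33.7% of all genes tested lay above and below control without overlap in this comparison. No such share was computed for ratios. The ratios carry no offset for GC content and transcript length, under which Lama1 lost its calls against control. For type IV collagen, the ratio of Col4a1 to Col4a2 per kilobase was 1.79 and 1.86 in control, 0.873 and 2.52 in knockdown-labelled cells, 1.25 and 1.23 in Ccnb1-labelled cells and 0.989 and 1.42 in CCE. The trimer holds more alpha1 than alpha2 chains, but these are transcript ratios and no test was run on them.

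**Figure D2:**
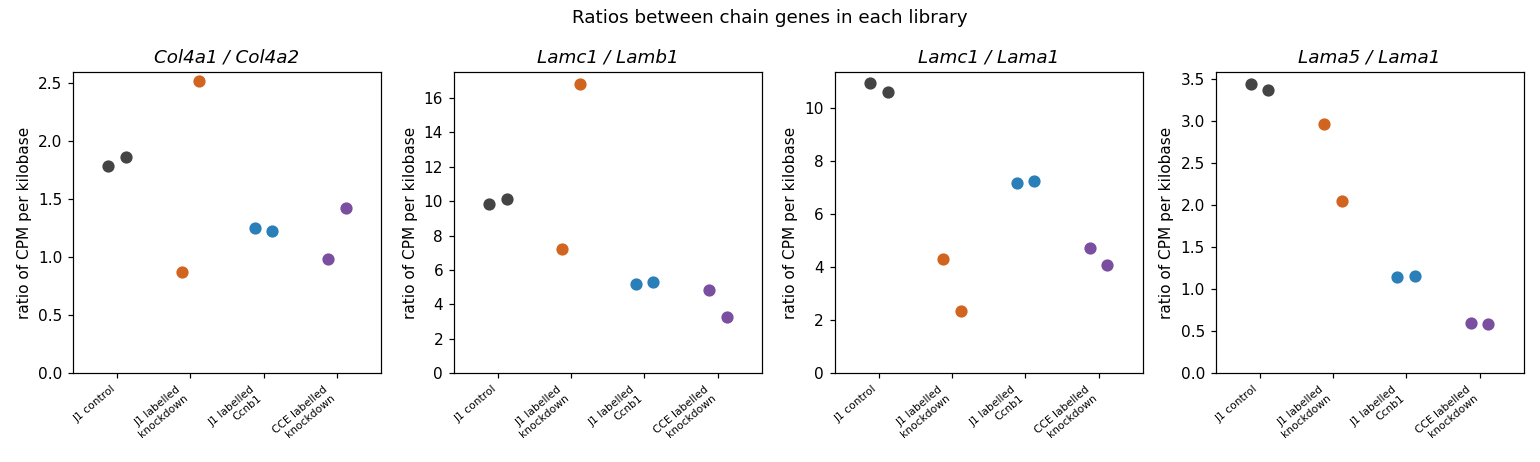
Ratio of CPM per kilobase of the longest transcript between chain genes (vertical axes, linear from 0) in each of the 8 libraries (points), by group. The Lama5 to Lama1 ratio is 3.44 and 3.37 in control and 1.15 and 1.16 in Ccnb1-labelled cells, and the knockdown-labelled libraries lie apart from each other in the Col4a1 to Col4a2 and Lamc1 to Lamb1 ratios.

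The genes of the proteins that link the networks went opposite ways in both comparisons with knockdown-labelled cells. Nid1 (ENSMUSG00000005397) encodes nidogen-1, which binds laminin gamma1 and type IV collagen. It stood at 112 and 128 CPM in control, 83.4 and 65.6 in knockdown-labelled cells, 236 and 237 in Ccnb1-labelled cells and 330 and 336 in CCE. The 4 groups did not overlap, and the order was that of Lamb1 and Lamc1. Nid1 fell by 0.84 (SE 0.14, edgeR adjusted p = 0.0107) in knockdown-labelled cells and rose by 0.90 (SE 0.14, edgeR adjusted p = 0.00968) in Ccnb1-labelled cells on the log2 scale, both against control, and differed by 1.74 (SE 0.14, edgeR adjusted p = 0.000769) between them. With the offset for GC content and transcript length the rise was 0.52 (edgeR adjusted p = 0.0715). Across the J1 libraries Nid1 had a Pearson r of 0.96 with Lamb1 and of 0.96 with Lamc1, over 6 libraries of 3 groups.

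Hspg2 (ENSMUSG00000028763) encodes perlecan, a large heparan sulfate proteoglycan of basement membranes. Its promoter window is shown because it was the 1 gene of the 10 with its highest mean of the 4 groups in knockdown-labelled cells. Among the J1 groups alone, Lama1, Sparc and Fn1 had their highest mean there too. Capitals mark the same 4 motifs.
Hspg2, chr4:137468553-137468852, plus strand: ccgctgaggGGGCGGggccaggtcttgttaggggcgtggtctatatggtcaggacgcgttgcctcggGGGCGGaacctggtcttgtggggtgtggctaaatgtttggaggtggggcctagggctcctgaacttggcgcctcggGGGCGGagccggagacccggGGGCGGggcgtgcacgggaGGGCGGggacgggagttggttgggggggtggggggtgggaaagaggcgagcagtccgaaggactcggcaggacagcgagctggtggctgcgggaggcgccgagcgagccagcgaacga
It held 5 GC boxes and none of the other 3 motifs. Of the other genes, Lamb1, Nid1, Sparc and Dab2 had windows too and Lama1, Lamc1 and Fn1 had none, and the GATA motif stood once, in 1 of the 2 windows of Dab2. Hspg2 stood at 503 and 524 CPM in control, 1542 and 1439 in knockdown-labelled cells, 466 and 477 in Ccnb1-labelled cells and 655 and 868 in CCE. Both knockdown-labelled libraries lay above every other library, and no groups overlapped. It rose by 1.38 (SE 0.06, edgeR adjusted p = 0.000275) on the log2 scale in knockdown-labelled cells against control and fell by 1.58 (SE 0.06, edgeR adjusted p = 0.000123) in Ccnb1-labelled cells against knockdown-labelled cells. The difference of -0.20 (SE 0.06, edgeR adjusted p = 0.0586) between Ccnb1-labelled cells and control did not pass. Its pattern ran against that of Lamc1 and Nid1, with Pearson r of -0.94 and -0.83 over the 6 J1 libraries. Hspg2 has the longest transcript of the 10, at 14187 bases, above 96.8% of genes tested, and a GC content of 60.8%, above 94.7%. The offset fitted to these 2 properties was 0.48 and 0.33 for Hspg2 in knockdown-labelled cells and -0.30 and -0.29 in control, on the log2 scale. With that offset it was still called in both comparisons, at 0.69 (edgeR adjusted p = 0.00128) and -1.07 (edgeR adjusted p = 0.000287).

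Sparc and Fn1 encode abundant secreted glycoproteins, SPARC (osteonectin, which binds type IV collagen) and fibronectin. Sparc (ENSMUSG00000018593) stood at 323 and 309 CPM in control, 532 and 620 in knockdown-labelled cells, 378 and 359 in Ccnb1-labelled cells and 642 and 683 in CCE. No groups overlapped, and the order from control through Ccnb1-labelled cells to knockdown-labelled cells differed from that of type IV collagen. Sparc rose by 0.71 (SE 0.09, edgeR adjusted p = 0.00519) in knockdown-labelled cells against control and fell by 0.57 (SE 0.09, edgeR adjusted p = 0.00738) in Ccnb1-labelled cells against knockdown-labelled cells on the log2 scale, the latter being -0.21 (edgeR adjusted p = 0.143) with the offset for GC content and transcript length. Its 0.15 (SE 0.09, edgeR adjusted p = 0.347) between Ccnb1-labelled cells and control did not pass, and was 0.44 (edgeR adjusted p = 0.0374) with that offset. Fn1 (ENSMUSG00000026193) stood at 650 and 597 CPM in control, 816 and 742 in knockdown-labelled cells, 722 and 756 in Ccnb1-labelled cells and 1055 and 1080 in CCE. Control lay lowest and CCE highest, and knockdown-labelled cells and Ccnb1-labelled cells overlapped. None of its differences within J1 passed, the log2 fold changes being 0.17 (SE 0.07, edgeR adjusted p = 0.136) and 0.17 (SE 0.07, edgeR adjusted p = 0.154) against control and 0.005 (SE 0.07, edgeR adjusted p = 0.968) between Ccnb1-labelled cells and knockdown-labelled cells. With the offset for GC content and transcript length, the values against control were -0.20 and -0.16, neither called. Fn1 was called higher in knockdown-labelled cells against control in 4 of the 15 alternatives, among them DESeq2 (0.22, adjusted p = 0.0119) and scaling by library size only (0.32, edgeR adjusted p = 0.0276). It was called higher in Ccnb1-labelled cells against control in 5, among them DESeq2 (0.19, adjusted p = 0.0389), limma (0.19, adjusted p = 2.97e-05) and only the 2 groups in the fit (0.12, edgeR adjusted p = 0.0134).

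Dab2 (ENSMUSG00000022150) encodes disabled-2, a clathrin adaptor that sorts receptors of the megalin family and that primitive endoderm needs to form an ordered epithelium. It was low in control, at 1.57 and 2.88 CPM, where 3 counts give 0.523 and 0.360 CPM. It stood at 16.4 and 8.62 CPM in knockdown-labelled cells, 22.0 and 20.2 in Ccnb1-labelled cells and 14.7 and 23.3 in CCE. Control lay below every other library, and CCE overlapped Ccnb1-labelled cells and knockdown-labelled cells. Its log2 fold changes against control were 2.31 (SE 0.55, edgeR adjusted p = 0.0299) in knockdown-labelled cells, on 72 and 31 counts, and 3.14 (SE 0.56, edgeR adjusted p = 0.0156) in Ccnb1-labelled cells. Since it passed the filter through the groups where it is high, it is left out of a second count below. Between Ccnb1-labelled cells and knockdown-labelled cells the log2 fold change was 0.83 (SE 0.51, edgeR adjusted p = 0.253). The call in knockdown-labelled cells against control was lost in 7 of the 15 alternatives. Among these were limma, the replicate block and only the 2 groups in the fit (edgeR adjusted p = 0.132 in the last). That in Ccnb1-labelled cells against control was lost in 4.

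Counted together, 5 of the 10 genes were called higher and 2 lower in knockdown-labelled cells against control, where 11% of all genes tested were called higher and 17.9% lower (28.9% in either direction). Those higher were Col4a2, Lama1, Hspg2, Sparc and Dab2, and those lower Lamc1 and Nid1. Without Dab2, 4 of 9 were higher and 2 lower. Without the Ccnb1-labelled libraries in the fit, 2 were higher (Hspg2 and Sparc) and 1 lower (Lamc1), against 5.56% and 7.66% of genes. Without control replicate 2, Hspg2 was the 1 gene higher and Lamc1 the 1 lower. With the offset for GC content and transcript length, 4 were higher and 2 lower, against 10.1% and 17.8%. In Ccnb1-labelled cells against knockdown-labelled cells, 5 were higher (Col4a1, Col4a2, Lamb1, Lamc1 and Nid1) and 2 lower (Hspg2 and Sparc), against 22.8% and 16% of genes (38.8% in either direction). With only the libraries of these 2 groups in the fit, 4 were higher and 2 lower, against 16.9% and 11.9%, and with the offset 5 and 1, against 20.3% and 14%. In Ccnb1-labelled cells against control, 6 were higher (Col4a1, Col4a2, Lama1, Lamc1, Nid1 and Dab2) and none lower by edgeR, against 9.35% and 10.5% of genes (19.8% in either direction). Without Dab2, 5 of 9 were higher. At an unadjusted p under 0.05, 7 of the 10 were higher and 1 lower, against 16.8% and 17.1% of genes. DESeq2 called 8 higher and 1 lower, against 16.3% and 15.8%, and limma 9 and 1, against 31.7% and 27.9%. With only these 2 groups in the fit, 8 were higher and 1 lower, against 31.4% and 30.7% of genes. With the offset for GC content and transcript length, 4 were higher (Col4a1, Col4a2, Sparc and Dab2) and 1 lower (Hspg2), against 5.14% and 7.79% of genes. Leaving out any 1 control library or Ccnb1-labelled library left Col4a2 as the 1 gene called in this comparison.

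By level alone, both libraries of one group lay above both of the other for 6 of the 10 genes and below for 3 in knockdown-labelled cells against control, where 30.9% and 31.4% of genes tested did so. The counts were 6 and 2 in Ccnb1-labelled cells against knockdown-labelled cells, against 39.1% and 31.4% of genes, and 9 and 1 in Ccnb1-labelled cells against control, against 45.3% and 33.7%. The median log2 fold change of the 10 genes was 0.80, 1.02 and 0.91 in the 3 comparisons, against -0.08, 0.14 and 0.07 over all genes tested, and without Dab2 it was 0.71, 1.21 and 0.90. The 3 comparisons share libraries, so their results are not independent of each other.

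**Figure D3:**
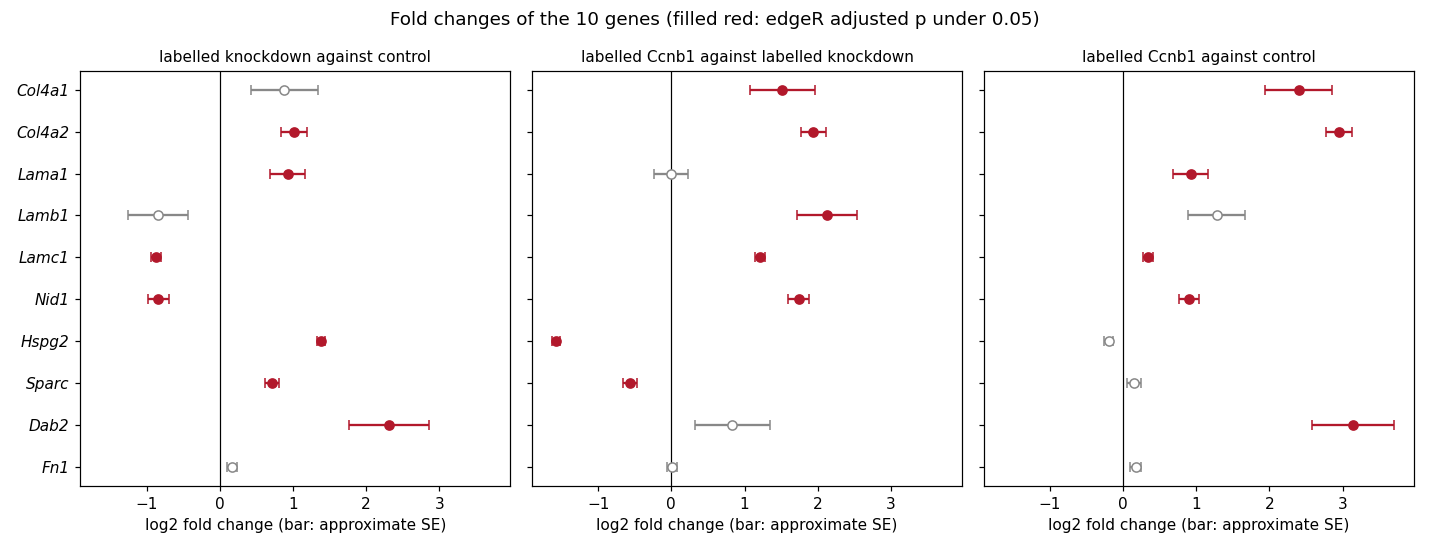
Log2 fold change of the 10 genes (points, horizontal axis) with its approximate SE (bars) in each of the 3 J1 comparisons, filled red where the edgeR adjusted p was under 0.05. Col4a2 is called in each, at 1.01, 1.94 and 2.95, and Hspg2 and Sparc are higher in knockdown-labelled cells against control and lower in Ccnb1-labelled cells against knockdown-labelled cells.

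Every one of the 10 genes had a higher mean in CCE than in J1 control, and 8 of the 10 were highest in CCE among the 4 groups. Dab2 was highest in Ccnb1-labelled cells, where it overlapped CCE, and Hspg2 in knockdown-labelled cells. The share of all genes with such an order was not computed, so these counts are no result about the 10 genes alone. The CCE libraries had a count for 21925 and 21579 genes, against 13217 to 18955 in J1. Line, treatment and counting cannot be told apart in this contrast, since CCE has no control here and its files hold 48.5% and 49.5% of reads outside genes against 11.9% to 13.9% in J1. These shares are of all reads listed in a file and lack a common base. The J1 files list unaligned and low-quality reads and the CCE files list none.

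Other genes of the basement membrane moved in both directions. Of 30 further components listed, 15 were tested, and in Ccnb1-labelled cells against control 1 rose and 4 fell (median log2 fold change 0.43), where 9.35% of all genes tested rose and 10.5% fell. Under the GC and length offset the counts were again 1 and 4, against 5.14% and 7.79% of genes. Nid2, the second nidogen gene, rose from 299 and 286 to 450 and 444.5 CPM (0.54, SE 0.07, edgeR adjusted p = 0.00523). Col18a1, whose protein gives rise to endostatin, fell from 368 and 392 to 137 and 158 CPM (-1.44, SE 0.10, edgeR adjusted p = 0.00103). Lama5 and Agrn, which encodes agrin, also fell. In knockdown-labelled cells against control 2 of the 15 rose and 2 fell (median -0.00033), against 11% and 17.9% of genes. Lama5 stood at 0.42 (SE 0.09, edgeR adjusted p = 0.0224) and Fbln1, the fibulin-1 gene, at -1.22 (SE 0.30, edgeR adjusted p = 0.0318), beside Lamb3 and Frem2, which had no count in knockdown-labelled cells. The Lama5 value turned to -0.16 (edgeR adjusted p = 0.330) with the offset, and the calls of Lama5 and Fbln1 were lost with only these 2 groups in the fit (edgeR adjusted p = 0.0591 and 0.0960). The call of Lamb3 was lost there too (edgeR adjusted p = 0.0922). Lamb3, on 1 and 6 counts in control, passed the filter on low counts through knockdown-labelled cells, where it is high. It did not pass with only control and Ccnb1-labelled cells in the fit. Between Ccnb1-labelled and knockdown-labelled cells, 3 rose and 5 fell (median 0.44, against 22.8% and 16% of genes), led by Col18a1 at -1.15 (SE 0.10) and Lama5 at -1.06 (SE 0.09, edgeR adjusted p = 0.000916), with Nid2 at 0.50 (SE 0.07).

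Enzymes and chaperones of collagen synthesis were tested for 18 of 21 listed genes. In Ccnb1-labelled cells against control 3 of the 18 rose and 2 fell (median 0.52), against 9.35% and 10.5% of genes, or 2 and 1 with the offset. P4ha2, the gene of a prolyl hydroxylase alpha subunit, rose from 6.79 and 7.67 to 62.2 and 71.3 CPM (3.12, SE 0.31, edgeR adjusted p = 0.00281). Serpinh1, the gene of the collagen chaperone HSP47, rose from 59.6 and 57.7 to 139 and 133 CPM (1.14, SE 0.10, edgeR adjusted p = 0.00232), and Ppib, the gene of cyclophilin B, fell (-1.13, SE 0.10, edgeR adjusted p = 0.00192). The other that rose was P4ha1, and P4hb, the gene of protein disulfide isomerase, fell. In knockdown-labelled cells against control 4 rose and 3 fell (median 0.15), against 11% and 17.9% of genes. P4ha2 and Serpinh1 were again among those higher, at 2.18 (SE 0.31) and 0.85 (SE 0.10), with Bmp1, a procollagen protease gene, at 2.61 (SE 0.43, edgeR adjusted p = 0.0100). Between Ccnb1-labelled and knockdown-labelled cells, 4 rose and 2 fell (median 0.43, against 22.8% and 16% of genes), among them Ppib at -1.04 (SE 0.10), Sec23a, a coat gene of export from the endoplasmic reticulum, at 1.78 (SE 0.22, edgeR adjusted p = 0.00277) and Bmp1 at -2.18 (SE 0.42).

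Among 22 tested matrix receptor genes, 6 rose and 4 fell in Ccnb1-labelled cells against control (median 0.48), against 9.35% and 10.5% of genes. Under the offset for GC content and transcript length 3 rose and 2 fell, against 5.14% and 7.79%. Dag1, which encodes the laminin and perlecan receptor dystroglycan, stood at 61.3 and 59.95 CPM in control, 21.1 and 36.7 in knockdown-labelled cells, 342 and 346 in Ccnb1-labelled cells and 214 and 229 in CCE. It rose by 2.43 (SE 0.23, edgeR adjusted p = 0.00244) on the log2 scale against control and by 3.66 (SE 0.25, edgeR adjusted p = 0.000441) against knockdown-labelled cells. Sdc4, the syndecan-4 gene, stood at 1.49 (SE 0.09) and Bcam, a receptor gene for laminin alpha5, at -1.43 (SE 0.08), both with an edgeR adjusted p of 0.000747. In knockdown-labelled cells against control 2 receptor genes rose and 3 fell (median 0.12, against 11% and 17.9% of genes), with Sdc4 at 2.49 (SE 0.09) and the integrin genes Itga9 and Itga6 at -1.88 (SE 0.19) and -1.06 (SE 0.16, edgeR adjusted p = 0.00807). Between Ccnb1-labelled and knockdown-labelled cells, 7 rose and 5 fell (median 0.71, against 22.8% and 16% of genes), with Bcam at -1.52 (SE 0.08) and Sdc4 at -1.0003 (SE 0.08). With the offset Bcam stood at -0.89 (edgeR adjusted p = 0.00121) in this comparison and at -0.90 (edgeR adjusted p = 0.00343) against control, still called. Of 18 tested genes of matrix proteases and their inhibitors, a list that also holds Serpinh1, 2 rose and 1 fell in Ccnb1-labelled cells against control (median 0.92), 5 rose and 4 fell in knockdown-labelled cells against control (median -0.24), and 4 rose and 3 fell between them (median 0.59). The shares of all genes are those given for the receptors, and with the offset 2 rose and none fell in the first comparison. Serpine2, which encodes protease nexin-1, stood at 2.77 (SE 0.21) in knockdown-labelled cells and 1.93 (SE 0.21, edgeR adjusted p = 0.00343) in Ccnb1-labelled cells, Mmp2, a gelatinase gene, at 2.37 (SE 0.46, edgeR adjusted p = 0.0164) in knockdown-labelled cells and Mmp11 at -0.74 (SE 0.14, edgeR adjusted p = 0.0197) in Ccnb1-labelled cells, all against control. The call of Mmp11 was lost with the offset (-0.27, edgeR adjusted p = 0.297) and that of Mmp2 with only the 2 groups in the fit (edgeR adjusted p = 0.0535). Between Ccnb1-labelled cells and knockdown-labelled cells, Adamts9 stood at 2.70 (SE 0.45) and Timp1 at -2.24 (SE 0.40, edgeR adjusted p = 0.00915).

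Genes of the primitive endoderm factors stood at a few CPM in control, and Gata6 and Gata4 at 17.2 CPM or more in every Ccnb1-labelled and CCE library. Gata6, whose factor specifies primitive endoderm, stood at 1.92 and 2.04 CPM in control, 2.96 and 13.3 in knockdown-labelled cells, 17.4 and 17.2 in Ccnb1-labelled cells and 28.2 and 33.2 in CCE. Gata4, of the same family, stood at 1.74 and 1.80 CPM in control, 5.68 and 0 in knockdown-labelled cells, 29.1 and 25.7 in Ccnb1-labelled cells and 22.7 and 30.3 in CCE. Both Ccnb1-labelled libraries lay above both controls for each gene. Pdgfra, a receptor gene used to mark the lineage, stood at 0.348 and 2.52 CPM in control, 15.0 and 7.79 in knockdown-labelled cells, 10.2 and 11.9 in Ccnb1-labelled cells and 18.9 and 16.7 in CCE. Foxa2 stood at 0.348 and 0 CPM in control, no count in knockdown-labelled cells and 5.28 and 6.19 CPM in Ccnb1-labelled cells. Of the 16 listed genes that are not among the 10, Ttr and Afp, markers of later visceral endoderm, had no count in any J1 library, and 14 were tested. In Ccnb1-labelled cells against control none of the 14 was called by edgeR (median 2.16), where 9.35% of all genes were called higher and 10.5% lower. Gata6 stood at 3.04 (SE 0.81, edgeR adjusted p = 0.0524) and Pdgfra at 2.82 (SE 0.95, edgeR adjusted p = 0.0955). At an unadjusted p under 0.05, 4 were higher and none lower, against 16.8% and 17.1% of all genes. DESeq2 called 4 higher and none lower, against 16.3% and 15.8%, and limma 10 higher and 2 lower, against 31.7% and 27.9%. With only these 2 groups in the fit, 11 were higher and 2 lower, against 31.4% and 30.7%. Gata6 then stood at 2.98 (SE 0.33, edgeR adjusted p = 4.82e-09), Gata4 at 3.81 (SE 0.29, edgeR adjusted p = 1.93e-12), and Lrp2 and Apoe were lower. With the offset for GC content and transcript length, 1 was higher (Apoe) and none lower, against 5.14% and 7.79%.

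In knockdown-labelled cells against control, 1 of these 14 genes rose and 1 fell (median -0.25, or -0.02 with genes at 0 set to the floor of 3 counts over a group). Over all genes tested, 11% rose and 17.9% fell. Apoe, the apolipoprotein E gene, rose from 751 and 765 to 2404 and 2172 CPM (1.44, SE 0.06, edgeR adjusted p = 0.000275). Sox7, at 4.53 and 2.64 CPM in control, dropped to no count in either knockdown-labelled library. In Ccnb1-labelled cells against knockdown-labelled cells 4 rose and 1 fell (median 1.68), against 22.8% and 16% of all genes tested. Those higher were Sox7, Hnf4a, Bmp2 and Foxa2, each without a count in either knockdown-labelled library. Without the Ccnb1-labelled libraries in the fit, Hnf4a, Bmp2 and Foxa2 did not pass the filter on low counts. The one lower was Apoe (-1.56, SE 0.06, edgeR adjusted p = 0.000123). Each knockdown-labelled library had 9 of the 16 genes at 0, against 2 or 3 in the other J1 libraries. Of all 37310 genes listed, 13217 and 14024 had a count in the knockdown-labelled libraries, against 17097 to 18955 in the other J1 libraries. The zeros are therefore no result about these 16 genes alone.

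**Figure D4:**
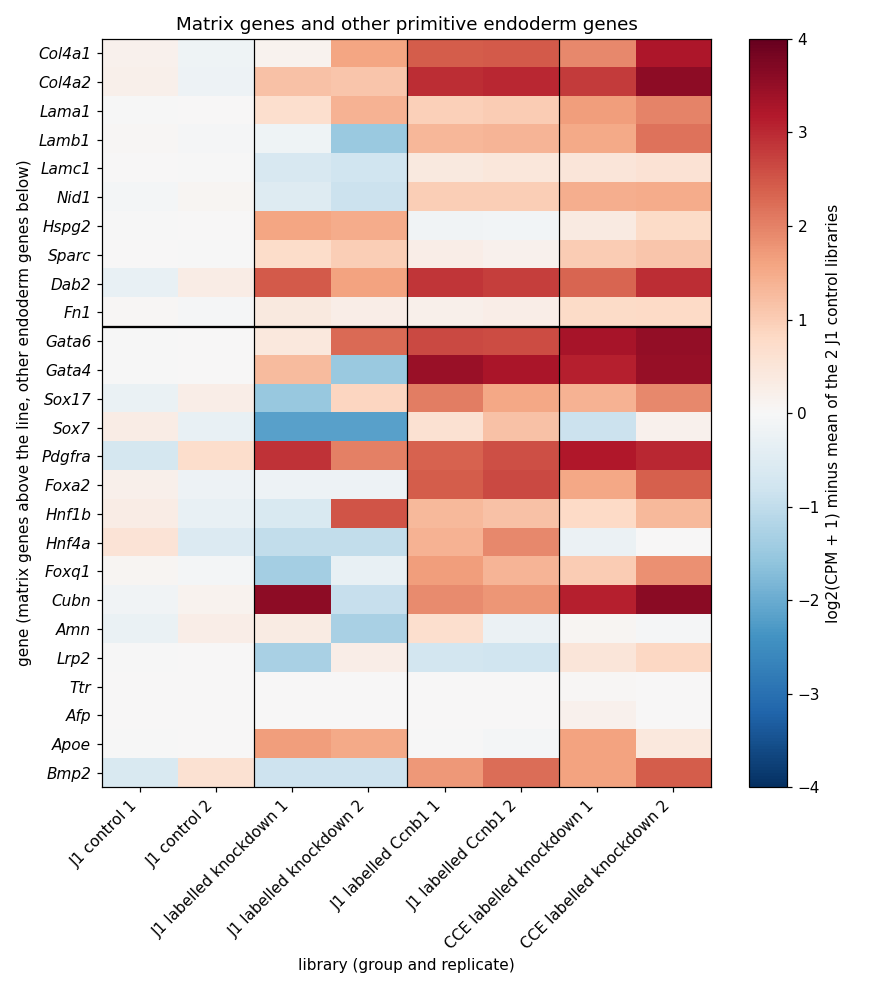
Log2(CPM + 1) of the 10 genes (above the line) and of 16 other primitive endoderm genes (below) in each of the 8 libraries, minus the mean of the 2 control libraries, so that red is above control and blue below. Gata6 and Gata4 are red in both Ccnb1-labelled libraries and both CCE libraries, as are Col4a1, Col4a2 and Dab2, while the knockdown-labelled libraries differ from each other at these low genes.

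Markers of other cell types were counted beside these results. Of 11 tested parietal endoderm genes, 2 rose and none fell in Ccnb1-labelled cells against control, where 9.35% and 10.5% of all genes tested did so. Those higher were Krt18 at 2.12 (SE 0.44, edgeR adjusted p = 0.0249) and Srgn at 3.98 (SE 0.81, edgeR adjusted p = 0.0333). Srgn did not pass the filter on low counts with only control and knockdown-labelled cells in the fit. The list of 12 summed to 26.1 and 27.0 CPM in control, 68.9 and 79.8 in knockdown-labelled cells, 92.5 and 93.3 in Ccnb1-labelled cells and 254 and 317 in CCE. The 12 fibroblast and feeder markers summed to 34.5 and 36.5 CPM in control, 80.3 and 93.1 in knockdown-labelled cells, 52.1 and 56.9 in Ccnb1-labelled cells and 311 and 594 in CCE, and Col3a1, Dcn, Postn and Fap had no count in any J1 library. Of 5 tested, 2 rose and none fell in knockdown-labelled cells against control, against 11% and 17.9% of all genes tested. Those higher were Col1a1 (3.504, SE 0.61, edgeR adjusted p = 0.0121) and Col5a1. The call of Col5a1 was lost with only the 2 groups in the fit (edgeR adjusted p = 0.0816). With the offset for GC content and transcript length 1 of the 5 rose, against 10.1% of genes. In CCE the smooth muscle genes Tagln and Acta2 held most of that sum, at 130 and 333 and at 133 and 213 CPM, and were higher in replicate 2, as were Col4a1 and Col4a2. The 10 trophectoderm markers summed to 40.5 to 44.5 CPM in control and knockdown-labelled cells, 58.4 and 68.6 in Ccnb1-labelled cells and 67.5 and 72.0 in CCE, with Plac1 at 0 in J1. Between Ccnb1-labelled cells and knockdown-labelled cells, 2 of 6 tested rose and 1 fell, against 22.8% and 16% of all genes tested. Cdx2 stood at -3.57, Eomes at 4.52 and Tead4 at 1.43 (edgeR adjusted p = 0.0202, 0.0301 and 0.0472). Eomes was at 9.23 and 13.5 CPM in control, 0 and 1.67 in knockdown-labelled cells and 15.7 and 19.8 in Ccnb1-labelled cells, and with only these 2 groups in the fit the calls of Eomes and Tead4 were lost (edgeR adjusted p = 0.10955 and 0.116). The 9 endothelial markers summed to 81.2 and 77.1 CPM in control, 241 and 224 in knockdown-labelled cells, 151 and 147 in Ccnb1-labelled cells and 297 and 228 in CCE, most of it Pecam1, which embryonic stem cells also express, and Tek, while Emcn had no count in J1. Of 6 tested, 3 rose (Pecam1, Tek and Tie1) and 1 fell in knockdown-labelled cells against control, against 11% and 17.9% of all genes tested. The one that fell was Esam, an endothelial adhesion gene, from 13.2 and 12.1 CPM to no count in either library, and it stood at 2.04 and 5.89 CPM in Ccnb1-labelled cells. Tie1 passed the filter on low counts through knockdown-labelled cells, where it is high, and not with only control and Ccnb1-labelled cells. With only control and knockdown-labelled cells in the fit, its call was lost (edgeR adjusted p = 0.0889). In that fit 2 rose and 1 fell, against 5.56% and 7.66% of genes. The part of these cell types in the levels of the 10 genes was not tested.

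Likeness to the mean pattern of the 10 genes was measured as Pearson r over the 6 J1 libraries among 10625 other genes at a mean of 5 CPM or more. The 5 most alike were Tex19.1 (0.999), Cep350 (0.997), Ubn1 (0.997), Baz2b (0.996) and Smg1 (0.996). Tex19.1 stood at 44.8 and 40.6 CPM in control, 92.5 and 93.1 in knockdown-labelled cells and 170 and 173 in Ccnb1-labelled cells. In all, 194 genes had an r above 0.95, over libraries that form 3 groups. Within the 10, the r of a gene with the mean of the other 9 was 0.96 for Col4a2, 0.94 for Dab2, 0.83 for Col4a1, 0.73 for Lama1 and 0.67 for Fn1, from 0.12 to 0.37 for Lamb1, Nid1, Sparc and Lamc1, and -0.14 for Hspg2.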

How the data were processed

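Poly-A RNA of 8 libraries was analysed from the count tables the authors deposited, which hold raw read counts per Ensembl gene. Per the submitters' processing notes, HTSeq 0.11.2, edgeR 3.26.8, Bowtie2 2.3.4.3, SAMtools 1.9 and the mm9 build were used; their roles and settings, and strand handling, are not given in the sources used here. Per the labels' protocols, reads were single-end or paired-end, without saying which library was which. Lines that name no gene entered neither library sizes nor tests. They held 15.7% to 45.2% of J1 reads as unaligned and none in CCE, so the lines were not counted alike and CCE entered no test.

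The 6 J1 libraries were fitted together in edgeR 4.0.16 (R 4.3.3) with TMM scaling, filterByExpr and the quasi-likelihood F test, without a replicate block, and p-values were adjusted by Benjamini-Hochberg over 14462 genes. The SE is the log2 fold change divided by the square root of F. Levels are counts scaled to the gene total (CPM), and 3 counts equal 0.360 to 0.834 CPM in J1. This floor covers counting error only. Lengths come from the longest GENCODE M21 transcript, and promoter windows from RefSeq. Alternatives were 15, among them DESeq2 1.42.0 and limma 3.58.1 with group weights. The procedure was tested on simulated counts. No gene of the 10 had a near-identical copy (90% identity over 300 bases, BLAST 2.17.0). Fn1 overlaps Apol7d on the opposite strand.

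The 10 genes and all lists were chosen with earlier results of these data known. Named were the 10 genes, Eif4a3 and Ccnb1, from each list and comparison up to 3 tested genes by smallest adjusted p, and the 5 genes most like the 10. Genes outside this rule (Agrn, P4ha1, P4hb, Lamb3, Gata6, Gata4, Pdgfra, Foxa2, Lrp2 and others given with their lists) were named after their values were seen. Not every gene picked by the rule is reported here.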

Additional observations from a re-analysis of the deposited data

How the results depend on the processing

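Of the 10 genes, 5 were higher and 2 lower in knockdown-labelled cells against control. These became 3 higher with a replicate block, 2 higher and 1 lower with only the 2 groups compared, and 1 to 6 higher and 1 to 3 lower without single libraries. Against knockdown-labelled cells, Ccnb1-labelled cells had 5 higher and 2 lower, which became 1 lower with the offset for GC content and transcript length, and 3 to 7 higher and 1 to 3 lower without single libraries. Against control, the 6 higher and 0 lower became 1 lower (Hspg2) with a mean of at least 5 CPM, DESeq2, limma, the offset and only the 2 groups compared, and 1 to 9 higher and 0 to 1 lower without single libraries; the replicate block left 5 higher. Lama1 between Ccnb1-labelled and knockdown-labelled cells was -0.28 and 0.46 without replicate 1 and replicate 2 of the latter, and Lamc1 between Ccnb1-labelled cells and control was -0.10 with the offset. Without single libraries, the counts of the 10 genes rose and fell with the calls over all genes, whose totals are given below. Those ranges are therefore no result about the 10 genes alone. With the replicate block, 887 of 14462 genes were called higher in Ccnb1-labelled cells against control. The causes were not tested.

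Hspg2 and Lamc1 kept their calls in both comparisons with knockdown-labelled cells under all 15 alternatives, and Col4a2 kept those of Ccnb1-labelled cells. Over all genes, 4184 calls in knockdown-labelled cells against control became 2631 with the block, 1760 with 2 groups and 701 to 10225 without single libraries, and 38.0% of calls were higher, or 49.0% with library size only. The other totals were 5616, with 1674 to 11078 without single libraries, and 2865 for Ccnb1-labelled cells against control, which became 4656 with DESeq2, 8608 with limma, 1869 with the offset, 8658 with 2 groups and 254 to 8806 without single libraries. Replicate numbers did not pair the libraries (r of -0.02 to 0.01 between same-numbered deviations). Library size alone moved the median gene from -0.08 to 0.06 in knockdown-labelled cells against control. Dab2 at 9 and 24 counts in control and Lamb1 at 49 counts in 1 knockdown-labelled library were limited by depth.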
